A study of Mus musculus with 4 samples.

Results

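The axon guidance ligands and receptors were taken as all genes whose symbols belong to the semaphorin, plexin, neuropilin, Slit, Robo, Eph receptor, ephrin, netrin and Unc5 families, matched by pattern on the symbol, which gave 68 of the 32285 genes in the count matrices. They comprised 20 semaphorins, 9 plexins, 2 neuropilins, 3 Slits, 4 Robo receptors, 14 Eph receptors, 8 ephrins, 4 netrins and 4 Unc5 receptors. All 68 were detected in each of the 4 libraries, and the cell types used below were built without any of them.

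These families are the classical cues and receptors that steer growing axons, and the same proteins position vessels, sort cells at boundaries and guide migrating mesenchyme. Semaphorins signal through plexins, with neuropilins as co-receptors for the secreted class. Slits bind Robo receptors, ephrins bind Eph receptors with signals passing both ways between touching cells, and netrins bind Unc5 receptors and DCC. In the tooth, semaphorins are known for keeping trigeminal axons out of the early dental mesenchyme, and innervation of the pulp begins only after birth.

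The libraries were droplet single-cell RNA-seq of wild-type C57BL/6J mouse molar tooth organs (genotype label WTB6), with no treatment. There were 4 groups of 1 library each, namely maxillary and mandibular molars at E15.5 (E15 in the labels), while the tooth crown is being shaped, and the same at P1, the first day after birth, when ameloblasts and odontoblasts are differentiating. Each library pooled 6 tooth organs, and the P1 animals were collected at P0 to P1. With 1 library in a group there is no replicate check and no test. A difference between stages or between jaws therefore cannot be told apart from one between pools or libraries, and all intervals below are 95% intervals that cover counting error only.

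Barcodes with at least 1000 UMIs, the molecules counted, were kept. The P1 libraries shared 7131 barcodes, against 28 to 70 for the other pairs of libraries, and the shared ones were dropped from the P1 mandibular library. This left 10073 cells for E15.5 maxillary, 6911 for E15.5 mandibular, 17040 for P1 maxillary and 10120 for P1 mandibular. Their median depths were 9596, 11234, 4019 and 10390 UMIs per cell. In the P1 maxillary library the shared barcodes had a median of 12088 UMIs, whereas in the P1 mandibular library they had 2870. They made up 95.2% of the P1 maxillary ameloblast-like cells and 96.6% of the dental papilla-like cells, but 0.469% of the chondrocyte-like cells. Whether reads were exchanged between the P1 libraries, or cells of one were counted in the other, was not tested. The P1 maxillary dental values, and any likeness of the jaws in dental classes at P1, rest on these barcodes belonging to the maxillary library. A number of P1 maxillary values are given on both footings, but the ameloblast-like and mineralising values of that library could not be.

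The 68 genes gave 484647 UMIs in the E15.5 maxillary library, 275499 in the E15.5 mandibular, 637575 in the P1 maxillary and 483263 in the P1 mandibular. This was 0.444%, 0.321%, 0.5% and 0.42% of all UMIs. A cell held a median of 10 to 13 of the genes. Levels are given as UMIs per 1000000 UMIs of a cell class (CPM). The counts come from the 3′ end of transcripts and do not scale with transcript length, but capture may differ between genes.

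Cell classes carried their defining markers unevenly. In the ameloblast-like class the enamel matrix gene Amelx stood at 32900 CPM in the P1 maxillary and 56300 CPM in the P1 mandibular library, against 647 and 1110 CPM in the next class, and 4 of 7 listed markers were highest there. Of 10 dental papilla markers, 7 were highest in the papilla-like class of the E15.5 maxillary library, but only 2 and 3 at P1, so the P1 class is named on fewer genes. Of 8 dental epithelium markers, 5 were highest in that class at E15.5, but 2 and 3 at P1, and this is the class the ameloblast-like cells are compared with. A P1 class with 4 of 6 odontoblast markers highest also carried osteoblast markers, and is called the mineralising clusters. The E15.5 mandibular epithelium was 1 mixed cluster of 141 cells, with a UMI of the basal keratin Krt5 in 83.0% of cells and of the suprabasal genes Krt13 in 16.3% and Krtdap in 29.1%. No dental epithelium-like or papilla-like class was found in that library.

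Expression of these genes was spread over several lineages. In mesenchyme-like cells they took 0.595% of UMIs in the E15.5 maxillary, 0.468% in the E15.5 mandibular, 0.563% in the P1 maxillary and 0.449% in the P1 mandibular library. In epithelium-like cells the share was 0.303% and 0.353% at E15.5, and 0.465% and 0.47% at P1, so both P1 values lay above both E15.5 values. The epithelium is made of different classes at the 2 stages, and within dental epithelium-like cells the share was 0.424% at E15.5 (maxillary), 0.527% in the P1 maxillary and 0.42% in the P1 mandibular library. Schwann lineage glia-like cells were at 0.453% and 0.411% at E15.5, above the epithelium, and at 0.424% and 0.338% at P1. Endothelium-like cells were at 0.346%, 0.329%, 0.377% and 0.401% in the same order of libraries, and pericyte-like cells at 0.3%, 0.367%, 0.366% and 0.365%. The neuron-like cells of the P1 maxillary library were at 0.496%. Muscle-like and immune-like cells stayed between 0.119% and 0.182%. Erythroid-like cells, which should lack these transcripts and so show the free RNA of the suspension, gave 0.0132%, 0.00394%, 0.0136% and 0.025%.

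**Figure D1:**
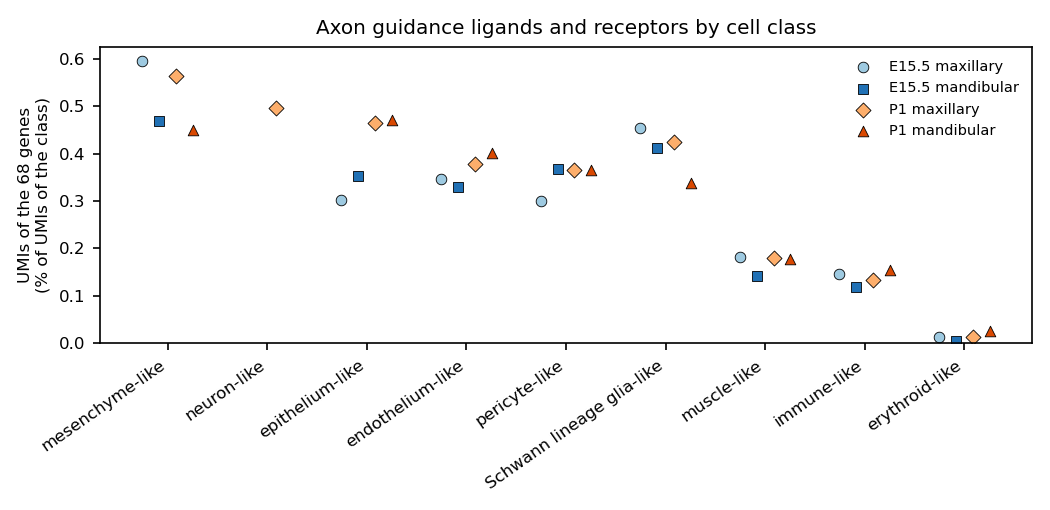
UMIs of the 68 genes as a percent of all UMIs of a cell class (vertical axis), with 1 point per library for each class of at least 50 cells. Mesenchyme-like cells lie between 0.449% and 0.595% and erythroid-like cells at or below 0.025%.

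By family, the semaphorins gave 95076, 62594, 135102 and 118971 UMIs in the order E15.5 maxillary, E15.5 mandibular, P1 maxillary and P1 mandibular, the most of any family in each library but the first. There the Robo receptors gave 96256, and in the other libraries 41240, 108264 and 78015. The Eph receptors gave 92432, 55670, 72458 and 53579, and the Slits 74578, 35120, 118974 and 72170. The Unc5 receptors, which transduce netrin repulsion, stood at 14726 and 6454 UMIs at E15.5 and at 76715 and 49043 at P1. Netrins were the smallest family, with 2002 to 4916 UMIs per library. These sums are not divided by library depth, and the cell makeup differed between libraries. Papilla-like cells numbered 330 in the E15.5 maxillary library, against 3097 and 1893 in the P1 maxillary and mandibular libraries.

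The members were divided between epithelium and mesenchyme. A gene was counted as apart when its class levels differed by more than 2-fold and their mean was at least 5 CPM. At E15.5 the maxillary library had 9 members higher in epithelium and 18 lower among 55 that passed the level filter, against 9.1% and 13.4% of all genes. The mandibular library had 18 higher and 11 lower among 54, against 11.7% and 13.9% of all genes. At P1 the counts were 12 higher and 15 lower among 55 in the maxillary library (10.6% and 12.3% of all genes), and 11 and 15 among 54 in the mandibular (9.65% and 13.8%). The members apart were thus 16.4% to 33.3% of those that passed in the higher direction and 20.4% to 32.7% in the lower, above the share of all genes in each library. In either direction 22.5%, 25.6%, 22.9% and 23.4% of all genes were apart in the order E15.5 maxillary, E15.5 mandibular, P1 maxillary and P1 mandibular. The 13 members that failed the filter in the maxillary libraries, and the 14 in the mandibular ones, had a mean of the 2 classes under 5 CPM and were not read.

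On the epithelial side in both jaws at E15.5 stood the Eph receptors Epha1 and Epha2, the Sema4d receptor Plxnb1, the laminin-related netrin Ntn4, the ephrin Efna3 and the membrane semaphorins Sema4a, Sema4b and Sema4d. Epha1 was at 22.0 and 21.4 CPM in maxillary and mandibular epithelium, and at 2.89 and 1.67 CPM in mesenchyme. Plxnb1 was at 27.7 and 31.0 CPM against 4.4 and 3.84 CPM. These 8 were all that were higher in both jaws, of 53 that passed in both, beside 7.46% of all genes.

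On the mesenchymal side, 11 members were lower in epithelium in both jaws at E15.5 (10.2% of all genes). Epha3, a receptor for A-type ephrins, was at 538 and 529 CPM in mesenchyme and 63.9 and 30.3 CPM in epithelium. Nrp1, the co-receptor of Sema3a and of VEGF, was at 236 and 285 CPM against 30.8 and 35.4 CPM. Robo2 was at 804 and 446 CPM in mesenchyme and 154 and 55.7 CPM in epithelium. Slit3, a ligand of the Robo receptors, was also mesenchymal, at 596 and 433 CPM against 82.7 and 36.5 CPM. Both a Slit and its receptor were thus abundant in the same compartment.

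Leaving only the dental classes in the E15.5 maxillary comparison turned 3 of the mesenchymal genes round. The epithelium over mesenchyme log2 ratio became 0.92 for Sema3c, 0.31 for Sema5b and 0.38 for Sema6d, so among dental cells these 3 were not on the mesenchymal side.

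At P1, 10 members were higher in epithelium in both jaws of 53 that passed in both (7.59% of all genes) and 13 lower (10.8%). The plexins Plxnc1, Plxna4, Plxna2 and Plxnb1 were all on the epithelial side. Plxnc1, the receptor of Sema7a, was at 88.2 and 125 CPM in epithelium and 4.64 and 5.92 CPM in mesenchyme. Plxna4, which pairs with neuropilins to receive Sema3a, was at 119 and 193 CPM against 21.7 and 16.1 CPM. Ntn4 was at 38.2 and 36.1 CPM against 3.88 and 2.91 CPM. Sema3d, a secreted semaphorin, was at 214 and 161 CPM against 66.3 and 46.5 CPM, but its maxillary log2 ratio of 1.69 became -1.21 without the shared barcodes. On the same footing Plxnc1 went from 4.25 to 1.41, Plxna4 from 2.45 to 1.52, Ntn4 from 3.3 to 1.39 and Plxna2 from 1.79 to 0.68, while Plxnb1 was at 2.17 and 2.27.

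Of the Unc5 receptors, Unc5c and Unc5d were on the mesenchymal side at P1, and Unc5b was not. Unc5d was at 339 and 145 CPM there and at 26 and 11.8 CPM in epithelium. Unc5c was at 450 and 390 CPM against 93.0 and 66.2 CPM. Unc5b was at 78.0 and 75.1 CPM in mesenchyme and 76.8 and 96.0 CPM in epithelium. Slit3 remained mesenchymal at 706 and 519 CPM, as did Epha3 at 221 and 249 CPM. By contrast Robo1, the most abundant Robo receptor of the epithelium, was on neither side, at 655 and 734 CPM in P1 epithelium and 503 and 466 CPM in P1 mesenchyme.

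**Figure D2:**
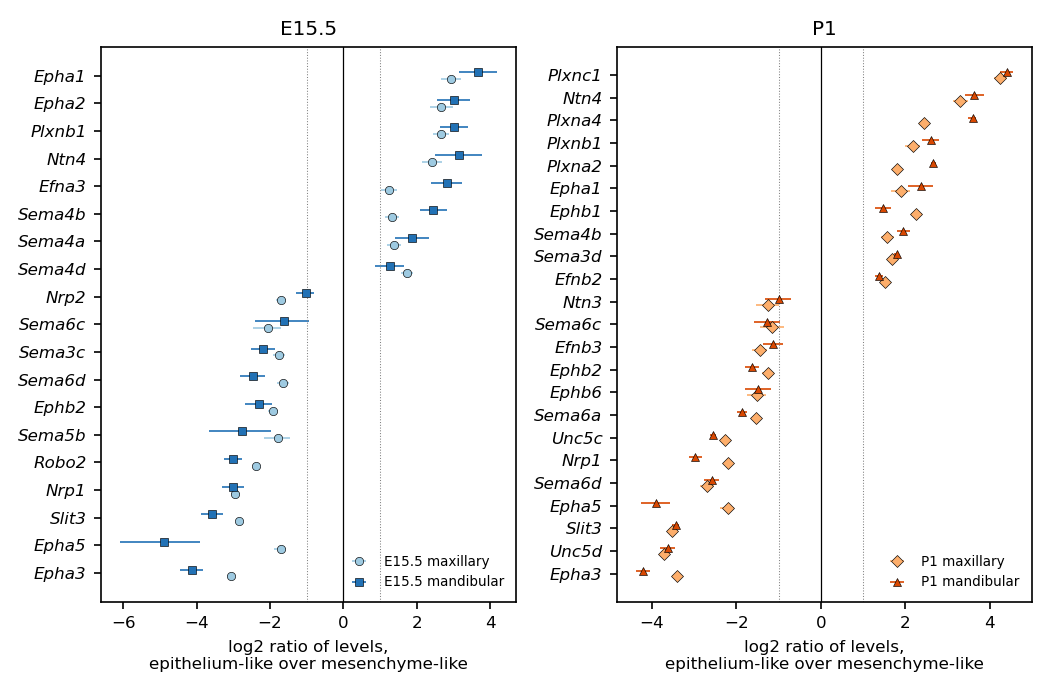
Log2 ratio of the level in epithelium-like over mesenchyme-like cells (horizontal axis) for the members past 2-fold the same way in both jaws, at E15.5 (left) and P1 (right). Points are single libraries, bars 95% counting intervals and dotted lines 2-fold. Epha1 leads the epithelial side at E15.5 and Plxnc1 at P1. Epha3 is far to the mesenchymal side in both panels. In the P1 maxillary library Unc5d (-3.71) and Slit3 (-3.53) lie beyond it (-3.4).

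Ameloblast-like cells at P1 had high levels of 3 plexins. Plxna2, a receptor for class 3 and class 6 semaphorins, was at 749 CPM (maxillary) and 782 CPM (mandibular) in 250 and 602 ameloblast-like cells. In the dental epithelium-like cells of the same libraries it was at 98.3 and 53.3 CPM, and in those of the E15.5 maxillary library at 33.8 CPM. Plxna4 was at 294 and 483 CPM against 117 and 44.2 CPM, and Plxnc1 at 366 and 363 CPM against 67.3 and 12.3 CPM. The log2 ratios were 2.93 (interval 2.84 to 3.02) and 3.88 (3.76 to 3.99) for Plxna2, 1.33 and 3.45 for Plxna4, and 2.44 and 4.88 for Plxnc1. For all 3 genes both ameloblast-like values lay above every dental epithelium-like value.

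A Plxna2 UMI was present in 96.4% and 94.7% of ameloblast-like cells and in 33.4% and 22.2% of dental epithelium-like cells. At 2000 UMIs per cell the shares were 64.4% and 67.4% against 13.2% and 7.66%. Erythroid-like cells had such a UMI in 0.501% and 1.72% of cells, or 0.187% and 0.36% when thinned, with median depths of 1913.5 and 3309.5 UMIs. The 8 erythroid markers summed to 76.7 CPM in the maxillary and 5930 CPM in the mandibular ameloblast-like cells. The part of free RNA in the Plxna2 values was not tested. Semaphorins were also present in the ameloblast-like class. Sema5a was at 1030 and 1210 CPM and Sema3d at 449 and 412 CPM, while Sema7a, the ligand of Plxnc1, was at 0.604 and 0.548 CPM.

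Promoters are shown for Plxna2 and Plxnc1, which had high ameloblast-like levels relative to dental epithelium-like cells. They run from 250 bases before to 50 bases after the transcription start, from RefSeq on GRCm38.p6, with GGGCGG on either strand (CCGCCC on the other) in capitals. Plxna2 lies at chr1:194619579-194619878 on the plus strand and Plxnc1 at chr10:94944796-94945095 on the minus strand, both printed 5′ to 3′.
Plxna2: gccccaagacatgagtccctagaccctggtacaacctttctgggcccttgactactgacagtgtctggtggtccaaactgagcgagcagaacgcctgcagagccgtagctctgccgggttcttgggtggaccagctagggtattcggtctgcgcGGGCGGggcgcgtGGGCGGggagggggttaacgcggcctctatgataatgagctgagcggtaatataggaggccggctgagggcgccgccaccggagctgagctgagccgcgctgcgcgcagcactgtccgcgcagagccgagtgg
Plxnc1: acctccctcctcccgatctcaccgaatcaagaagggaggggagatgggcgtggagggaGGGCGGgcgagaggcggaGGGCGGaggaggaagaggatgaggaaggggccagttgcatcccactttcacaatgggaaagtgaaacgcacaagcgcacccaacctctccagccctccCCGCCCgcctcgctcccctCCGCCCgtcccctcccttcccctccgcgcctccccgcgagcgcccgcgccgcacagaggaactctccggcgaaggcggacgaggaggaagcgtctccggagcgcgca
The motif, the core of the GC box, occurred 2 times in the Plxna2 window and 4 times in that of Plxnc1. It was present in 35.7% of 32851 promoters, and in 70.7% of the 75 promoters listed for 59 of the members. A match describes the letters and shows no binding.

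Most members that were apart in ameloblast-like cells were lower there. Of 49 that passed in the P1 maxillary library, 3 were higher and 23 lower than in dental epithelium-like cells, beside 6.45% and 18.0% of all genes. In the mandibular library 8 were higher and 23 lower of 50, beside 8.96% and 20.9%. In both jaws together 3 were higher and 20 lower of 49, beside 5.76% and 14.8%. The median log2 ratio of all genes tested was itself -0.3 and -0.33 in these 2 comparisons, against -0.89 and -0.78 for the members.

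The Eph receptors Epha4, Ephb1 and Epha7 and the ligands Sema3a and Ntn1 were among the lowest in ratio in both jaws. Ntn1 had log2 ratios of -3.14 and -3.78. Epha4 was at 7.25 and 6.99 CPM in ameloblast-like cells and at 142 and 134 CPM in dental epithelium-like cells. Epha7 was at 13.6 and 13.4 CPM against 178 and 122 CPM. Ephb1 was at 1.21 and 0.548 CPM, which rests on few UMIs, against 20.4 and 24.2 CPM. The repulsive ligand Sema3a was at 11.2 and 13.3 CPM against 157 and 180 CPM, although its mandibular ratio turned to 0.29 when the shared barcodes were kept in both P1 libraries. Slit2 was at 228 and 107 CPM against 888 and 623 CPM. The ameloblast-like levels of these genes lay below the dental epithelium-like levels in both jaws.

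**Figure D3:**
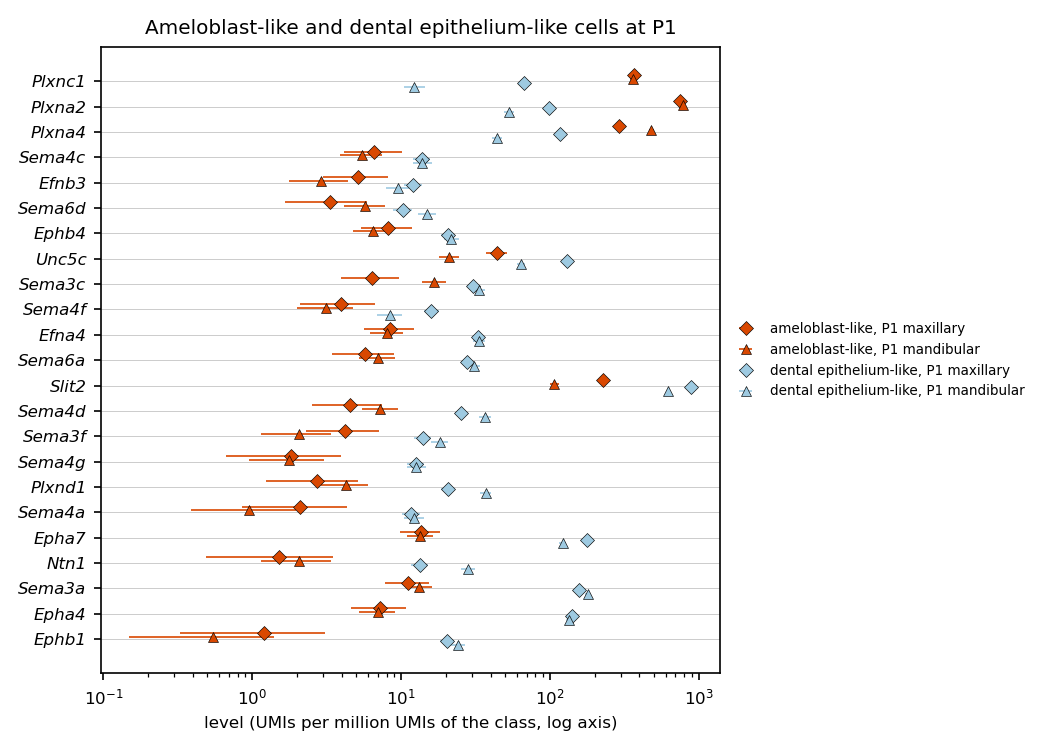
Levels at P1 (horizontal log axis, CPM) in ameloblast-like cells (red) and dental epithelium-like cells (blue), for the 23 members past 2-fold the same way in both jaws. Points are single libraries (diamonds maxillary, triangles mandibular) and bars 95% counting intervals. Plxnc1, Plxna2 and Plxna4 are the 3 members with the red points on the right.

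In the dental papilla-like cells, which form the pulp, the comparison of stages could be made only in the maxillary libraries. The E15.5 side was 1 cluster of 330 cells with a median of 14093.5 UMIs, and the genes that led it included the cell-cycle genes Hist1h1b, Depdc1a, Hist1h1a and Hist1h2ap and none of the listed papilla markers. A cluster led by cell-cycle genes was also among the papilla-like cells of each P1 library, with 411 cells in the maxillary and 413 in the mandibular. At Leiden resolution 2.0 the E15.5 cell-cycle cluster of 254 cells was not named papilla-like, and clusters of 294 and 78 cells were. In the reported setting, with the cluster of 330 cells, 11 members were higher at P1 and 12 lower, of 51 that passed. This was beside 8.66% and 9.98% of all genes. The 3 Unc5 receptors that passed 2-fold were all higher at P1. Unc5c was at 61.7 CPM at E15.5 against 694 CPM at P1 in the maxillary library, and at 678 CPM at P1 in the mandibular. Unc5b was at 21.5, 91.9 and 92.1 CPM in the same order. Unc5d was at 85.8, 405 and 95.1 CPM, so that its P1 mandibular level lay close to the E15.5 one. In the few maxillary papilla-like cells with no shared barcode the log2 ratios were much the same, at 3.61 for Unc5c (3.49 with all cells), 2.27 for Unc5b (2.09) and 2.37 for Unc5d (2.24). At resolution 2.0 they were 3.49 for Unc5c, 1.62 for Unc5b and 1.14 for Unc5d.

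The share of papilla-like cells with an Unc5c UMI was 26.4% at E15.5, 89.1% in the P1 maxillary and 90.9% in the P1 mandibular library. Thinned to 2000 UMIs it was 7.84%, 59.0% and 59.1%. In erythroid-like cells it was 1.18%, 1.17% and 3.68%. The 7 ameloblast markers summed to 4.14, 90.8 and 230 CPM in these papilla-like cells and the 8 erythroid markers to 1960, 720 and 3630 CPM, and the part of such RNA in the papilla values was not tested. The vascular semaphorin receptor Plxnd1 was at 9.94 CPM at E15.5, 60.0 CPM in the P1 maxillary and 79.5 CPM in the P1 mandibular papilla-like cells, and its ligand Sema3e at 23.6, 152 and 19.6 CPM. For Sema3e the P1 maxillary value stood apart from the other 2.

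Of the 14 Eph receptors 10 passed the level filter. Of these 10, 6 were lower at P1 (9.98% of all genes), namely Epha3, Epha6, Epha7, Ephb1, Ephb2 and Ephb3. Ephb6 was higher, and Epha4, Epha5 and Ephb4 were within 2-fold. Epha3 was at 563 CPM in the E15.5 maxillary papilla-like cells and at 30.6 and 28.4 CPM at P1, a log2 ratio of -4.2 for the maxillary libraries. An Epha3 UMI was found in 66.1% of the E15.5 cells and in 15.8% and 14.9% of the P1 cells, or 39.5%, 4.56% and 3.99% when thinned, and in 4.0%, 1.25% and 2.33% of erythroid-like cells. Epha7 was at 328, 152 and 73.0 CPM, and Ephb2 at 104, 21.2 and 8.65 CPM. Robo2 was at 736, 236 and 134 CPM, whereas Robo1 was at 503, 562 and 601 CPM. Slit3 stayed within 2-fold at 525, 865 and 562 CPM, and Nrp1 was at 163, 67.5 and 66.8 CPM. Without the shared barcodes the maxillary log2 ratios were smaller for Epha3 (-2.9), Robo2 (-0.92 in place of -1.64) and Ephb2 (-0.8 in place of -2.3). They were also smaller for Epha7 (-0.68 in place of -1.11), Epha6 (-1.03 in place of -2.36) and Ephb1 (-1.75 in place of -3.05). Those of Nrp1 (-1.23 and -1.27) and Ephb3 (-1.03 and -1.16) were close to unchanged. At resolution 2.0 the ratio was -4.45 for Epha3, -2.11 for Ephb2, -1.87 for Epha7, -1.07 for Ephb1 (-3.05 as reported) and -0.83 for Epha6 (-2.36). A dental follicle-like class, described below, was separated at P1 only and had more Epha3 and Robo2 than the P1 papilla-like cells. Whether the E15.5 papilla-like cluster held follicle cells was not tested.

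The mineralising clusters of P1, with 370 and 388 cells, differed from the papilla-like cells in the same libraries by 6 members higher and 23 lower of 46 in the maxillary library (6.74% and 17.8% of all genes). In the mandibular library there were 11 higher and 21 lower of 45 (6.84% and 15.8%). In both jaws 5 were higher and 20 lower of 44 (5.24% and 12.6%). The median log2 ratio was -1.14 and -0.75 for members and -0.23 and -0.21 for all genes.

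The 5 higher in both jaws were Ephb1, Sema7a, Sema4d, Epha2 and Unc5b. Sema7a, a membrane-anchored semaphorin that binds Plxnc1 and integrins, was at 24.5 and 42.5 CPM in the mineralising clusters and 1.85 and 2.7 CPM in the papilla-like cells. Ephb1 was at 33.7 and 38.0 CPM against 1.27 and 2.27 CPM. Sema4d, a semaphorin known for restraining osteoblasts, was at 66.6 and 78.4 CPM against 11.4 and 14.9 CPM. Unc5b was at 215 and 220 CPM against 91.9 and 92.1 CPM. Sema5a, at 734 and 848 CPM, was the most abundant member in these clusters in both jaws.

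On the other side, Unc5d was at 10.1 and 13.8 CPM in the mineralising clusters, against 405 and 95.1 CPM in the papilla-like cells. Unc5c was at 140 and 273 CPM against 694 and 678 CPM. Ephb6, a kinase-dead Eph receptor, was at 3.1 and 1.66 CPM against 30.8 and 21.2 CPM. Slit3 was at 172 and 197 CPM against 865 and 562 CPM. Within the Unc5 family, Unc5b was thus higher and Unc5c and Unc5d lower in the mineralising clusters of both jaws.

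**Figure D4:**
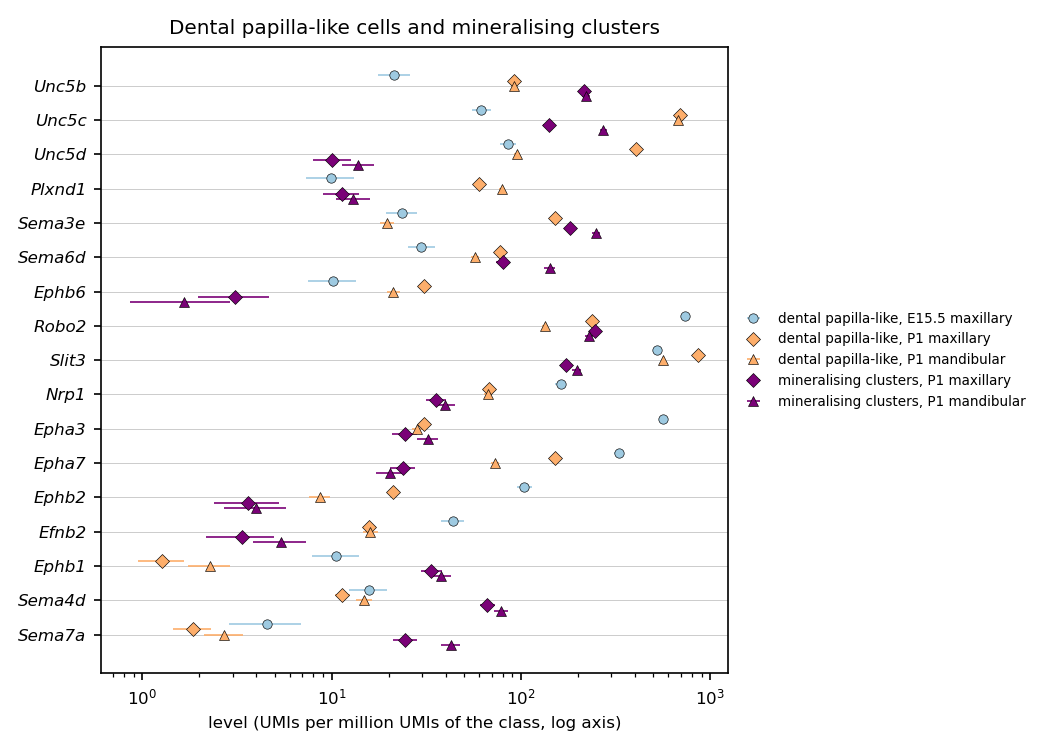
Levels (horizontal log axis, CPM) of 17 members in dental papilla-like cells of the 3 libraries that hold them and in the mineralising clusters of both P1 libraries. Bars are 95% counting intervals. Among the classes shown, Epha3 is high only in the E15.5 papilla-like cells (563 CPM), while Sema7a and Ephb1 are highest in the mineralising clusters.

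Dental follicle-like cells, found at P1 only, had much of 3 mesenchymal members. Epha3 was at 1190 and 864 CPM, against 30.6 and 28.4 CPM in the papilla-like cells. Slit3 was at 860 and 1000 CPM, in the maxillary library close to the papilla-like level. Robo2 was at 877 and 614 CPM. Osteoblast-like cells had Robo2 at 710 and 585 CPM at E15.5. The follicle-like class held 439 and 106 cells, and 44.9% of the P1 maxillary ones carried shared barcodes.

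In the dental epithelium-like cells of the maxillary libraries, 9 members were higher at P1 and 7 lower of 53, beside 5.42% and 6.8% of all genes. Slit2 was at 222 CPM at E15.5 against 888 CPM at P1. Unc5b was at 23.2 and 93.4 CPM, and Plxna2 at 33.8 and 98.3 CPM. Sema6a, a membrane ligand of plexins A2 and A4, was at 140 and 27.8 CPM, and Epha3 at 59.4 and 11.9 CPM. The P1 mandibular dental epithelium-like cells had Slit2 at 623 CPM, Sema6a at 31.0 CPM and Epha3 at 12 CPM, so these 3 were on the same side of the E15.5 level in both P1 libraries. With the shared barcodes left out, the maxillary log2 ratios were 1.27 for Slit2 (2.0 with all cells), -2.21 for Sema6a (-2.34) and -2.88 for Epha3 (-2.32). Plxna4 was at 43.2 CPM at E15.5, 117 CPM in the P1 maxillary and 44.2 CPM in the P1 mandibular library, and Plxnc1 at 23.7, 67.3 and 12.3 CPM. Naming each cell on its own turned the maxillary Plxna4 ratio of 1.44 to -0.22.

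Over whole lineages the stages could be compared in both jaws. In mesenchyme 7 members were higher at P1 and 8 lower of 53 in the maxillary libraries (5.45% and 3.74% of all genes), and 8 and 7 of 51 in the mandibular (6.64% and 3.17%). In either direction 9.18% and 9.81% of all genes were apart. In both jaws 7 were higher and 4 lower of 50 (4.5% and 1.77%). The 7 were Unc5b, Unc5c, Unc5d, Plxnd1, Ephb6, Sema3e and Sema3b. Unc5c was at 71.8 and 62.2 CPM at E15.5 against 450 and 390 CPM at P1. The 4 were Ephb2, Sema5b, Epha3 and Nrp1, with Ephb2 at 111 and 111 CPM at E15.5 against 43.2 and 42.2 CPM at P1.

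In the maxillary libraries this stage difference moved with the shared barcodes. Without them 3 members of 51 were apart instead of 15, beside 1.87% of all genes, and the P1 over E15.5 log2 ratio went from 2.78 to -0.15 for Unc5b and from -1.28 to 0.32 for Epha3. Unc5c went from 2.65 to 1.34, Unc5d from 1.62 to 0.42, Plxnd1 from 1.84 to 0.31, Ephb6 from 1.81 to 0.51, Sema3b from 1.73 to 0.3 and Sema3e from 1.66 to 1.19. Among the lower members Ephb2 went from -1.36 to -0.41, Sema5b from -1.24 to -0.45 and Nrp1 from -1.05 to -0.12. The mandibular libraries, in which no shared barcode was used, gave 2.6 for Unc5b and -1.09 for Epha3, but their makeup differed too, since 1893 papilla-like and 388 mineralising cells were among the 5254 at P1 and none of either among the 3167 at E15.5. The shared barcodes hold most of the P1 maxillary papilla-like cells, so leaving them out also changes the makeup of the lineage.

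In epithelium, 14 members were higher and 6 lower at P1 of 53 in the maxillary libraries (8.38% and 5.2% of all genes), and 8 and 13 of 54 in the mandibular (7.57% and 6.4%), with 13.6% and 14.0% of all genes apart in either direction. In both jaws 7 were higher and 5 lower of 50 (4.4% and 2.59%). Plxna4 was at 16.8 and 21.0 CPM at E15.5 against 119 and 193 CPM at P1. Plxna2 was at 40 and 49.5 CPM and at 162 and 283 CPM. Unc5b was at 9.56 and 36.9 CPM and at 76.8 and 96.0 CPM. The classes differ in makeup: the E15.5 mandibular epithelium was the mixed cluster of 141 cells, and the ameloblast-like cells were found at P1 only. Without the shared barcodes 13 members of 51 were apart in the maxillary libraries instead of 20, beside 16.5% of all genes, and the ratio turned to -0.71 for Ntn4 and for Sema5a. On that footing Plxna2 went from 2.02 to 0.44, Plxnd1 from 2.01 to 0.24, Plxnc1 from 2.46 to 0.48, Unc5b from 3.01 to 1.07 and Plxna4 from 2.82 to 1.83.

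The jaws were compared within each stage. In mesenchyme 6 members were higher in the maxillary library and 1 lower at E15.5, of 49 (2.79% and 1.31% of all genes), and 3 and 1 of 52 at P1 (1.34% and 1.66%), with 4.1% and 3.0% of all genes apart in either direction. The 3 higher in maxillary mesenchyme at both stages, of 47 that passed at both (0.729% of all genes), were Sema3e, Unc5d and Epha6. The mesenchyme differed in makeup between jaws, with 330 papilla-like cells in the E15.5 maxillary library and none in the mandibular, and 640 chondrocyte-like cells at P1 in the maxillary library against 356 tendon-like cells in the mandibular. Sema3e was at 38.1 CPM (maxillary) and 7.44 CPM (mandibular) at E15.5 against 120 and 42.8 CPM at P1. Unc5d was at 110 and 36.7 CPM, and at 339 and 145 CPM. Epha6 was at 27.2 and 6.19 CPM, and at 8.81 and 4.19 CPM, the last 2 near the level filter. Without the shared barcodes 20 members of 52 were apart in P1 mesenchyme instead of 4, beside 11.0% of all genes, and the P1 log2 ratio went from 1.22 to 0.02 for Unc5d, from 1.49 to 1.03 for Sema3e and from 1.07 to 2.66 for Epha6.

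In epithelium the jaws differed by 5 members higher and 8 lower in the maxillary library at E15.5 of 56 (2.68% and 2.52% of all genes), where the mandibular class was the mixed cluster of 141 cells, and by 3 and 0 of 53 at P1 (3.9% and 1.16%). In either direction 5.2% and 5.06% of all genes were apart. Epha5 alone was higher in the maxillary library at both stages of 52 (0.509%). It was at 21.5 and 2.95 CPM at E15.5 against 12.1 and 3.14 CPM at P1. The E15.5 mandibular value rests on 8 UMIs, and in the P1 comparison restricted to shared barcodes the log2 ratio of 1.94 became -0.12, whereas with those barcodes dropped from both libraries it became 3.82. Naming each cell on its own turned the E15.5 ratio of 2.86 to -0.49. With the shared barcodes left out, 17 members of 51 were apart in P1 epithelium instead of 3, beside 23.2% of all genes. The P1 maxillary epithelium also held 498 nasal or olfactory and 256 gland cells, of which 0.201% and 0.781% had shared barcodes, whereas the mandibular held 37 gland cells and no nasal class.

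Members were also listed for vessels, nerve sheath, muscle and immune cells. A member was listed for a class when it was at 20 CPM or more there in both jaws and high relative to the median of the other lineages, so it may be as high in another class. In endothelium-like cells Robo4, the endothelial Robo receptor, was at 73.1, 112, 86.1 and 94.2 CPM in the order E15.5 maxillary, E15.5 mandibular, P1 maxillary and P1 mandibular. In mesenchyme-like cells it was at 0.211, 0.285, 0.0627 and 0.103 CPM. Plxnd1 was at 364, 423, 456 and 411 CPM in endothelium-like cells. The arterial ephrin Efnb2 was there at 179, 178, 190 and 182 CPM. The endothelial levels of these 3 genes varied by less than 2-fold over the 4 libraries.

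In pericyte-like cells, the mural cells of small vessels, Sema5b was at 152, 268, 140 and 175 CPM, and Sema5a at 474, 595, 573 and 559 CPM, below its ameloblast-like levels of 1030 and 1210 CPM. In Schwann lineage glia-like cells Epha5 was at 1090, 818, 698 and 654 CPM, against 2.95 to 87.0 CPM in epithelium and mesenchyme. Plxnb3 was at 46.4, 43.8, 41.2 and 55.8 CPM in the glia-like cells and at 0.198 to 0.325 CPM in mesenchyme-like cells. The secreted semaphorin Sema3b was there at 106, 96.9, 112 and 168 CPM. Muscle-like cells had Plxna2 at 201, 238, 204 and 234 CPM, below the 749 and 782 CPM of ameloblast-like cells. Immune-like cells had Sema4d, a semaphorin first known from lymphocytes, at 82.5, 82.2, 49.5 and 65.3 CPM, and Plxnc1 at 35.2, 46.0, 50.1 and 68.9 CPM. At P1 both were higher elsewhere, Sema4d in the mineralising clusters (66.6 and 78.4 CPM) and Plxnc1 in epithelium (88.2 and 125 CPM).

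Across lineages, 45 members reached 20 CPM in their highest class in all 4 libraries, and for 20 of these (44.4%) the highest class was the same in all 4, beside 41.3% of all genes at that level. Neuron-like cells were numerous enough to be ranked only in the P1 maxillary library (778 cells), and with them left out the count was 22 (48.9%, beside 46.5% of all genes). Robo2 was at 1200 CPM in them, Efna5 at 616 CPM and Nrp2 at 444 CPM, and 0.386% of them carried shared barcodes.

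**Figure D5:**
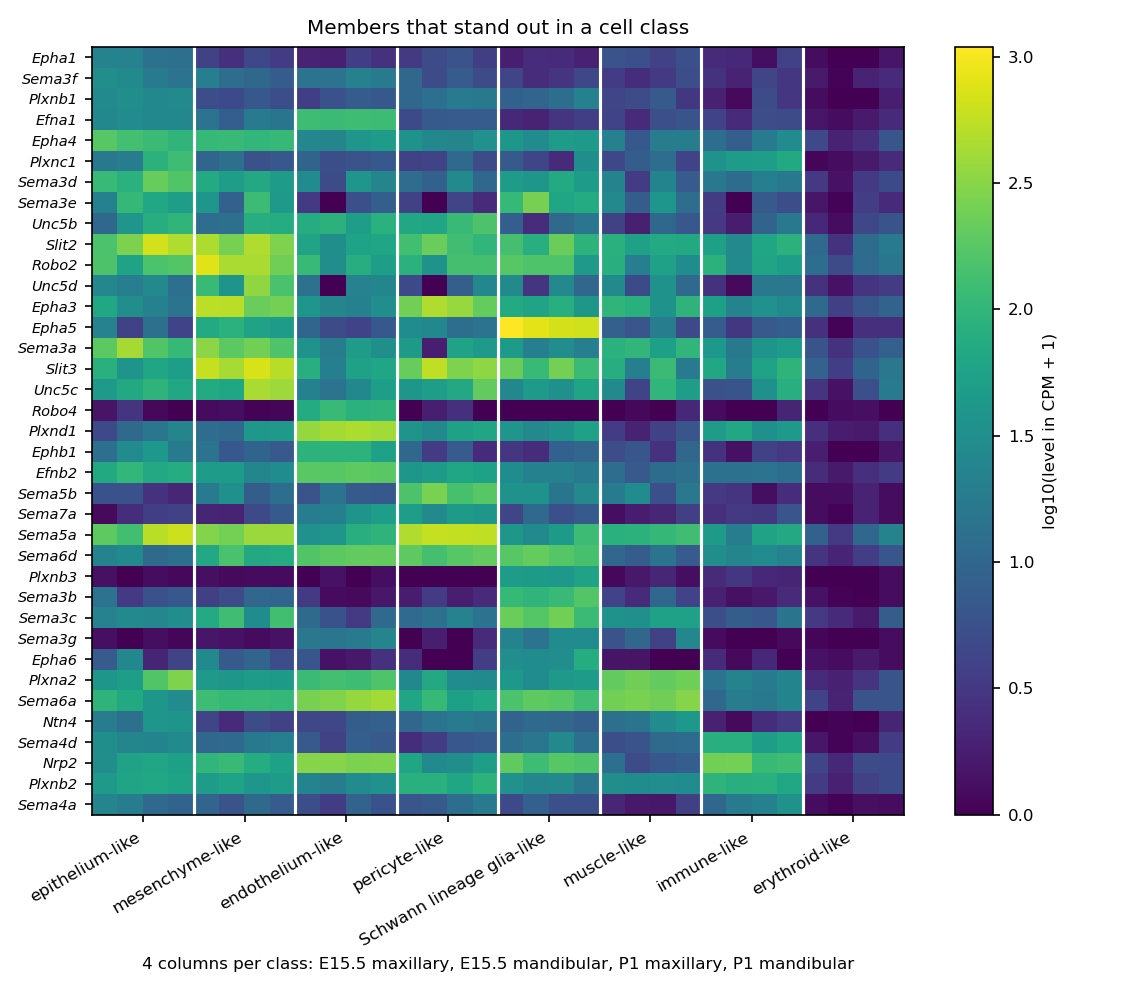
Levels as log10(CPM + 1) (colour) of the members listed for a cell class, with 4 columns for the 4 libraries in each of 8 classes. Epha5 is brightest in the glia-like cells (654 to 1090 CPM), and the erythroid-like columns are dark throughout.

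A list of 34 other guidance genes (among them netrin receptors outside the Unc5 family, repulsive guidance molecules, Flrt proteins and cytoplasmic effectors) went with the same comparisons. Of those that passed, 3 were higher and 4 lower in epithelium at E15.5 among 27 in the maxillary library, and 4 and 6 among 27 in the mandibular, beside 9.1% and 13.4%, and 11.7% and 13.9%, of all genes. At P1 it was 6 and 7 among 28 (10.6% and 12.3% of all genes), and 4 and 8 among 27 (9.65% and 13.8%). Several of these shares were near those of all genes. Dcc, the attractive netrin receptor, was on the mesenchymal side throughout, at 195, 68.8, 113 and 32.2 CPM in mesenchyme and 25.5, 4.06, 13.1 and 0.763 CPM in epithelium. The collapsin response protein Dpysl3 was at 219, 258, 195 and 241 CPM against 72.9, 74.2, 37.4 and 29.8 CPM.

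In ameloblast-like cells 2 of this list were higher and 16 lower of 25 in the maxillary library, and 3 and 13 of 24 in the mandibular, beside 6.45% and 18.0%, and 8.96% and 20.9%, of all genes. Rgma, a repulsive guidance molecule, was at 2.11 and 2.05 CPM against 32.0 and 51.3 CPM in dental epithelium-like cells. In the mineralising clusters 4 were higher and 5 lower of 25 in the maxillary library, and 4 and 6 of 25 in the mandibular, beside 6.74% and 17.8%, and 6.84% and 15.8%, so the lower counts were near the share of all genes. Srgap3, a Slit and Robo effector, was at 52.6 and 92.4 CPM there against 12.7 and 8.61 CPM in papilla-like cells. Flrt2 was at 6.46 and 6.78 CPM against 74.6 and 67.9 CPM.

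The members lie on 19 chromosomes, and 14 neighbouring pairs on 9 of these are less than 2000000 bases apart. On chromosome 5 Sema3d, Sema3a and Sema3e follow each other with gaps of 536466 and 422711 bases, yet differed in the P1 ameloblast-like cells, where they were at 449, 11.2 and 74.0 CPM in the maxillary and 412, 13.3 and 67.7 CPM in the mandibular library. On chromosome 9 Robo4 and Robo3 lie 554 bases apart. On chromosome 10 Ntn4 and Plxnc1, both on the epithelial side at P1, are separated by 1043659 bases. On chromosome 16 Robo1 and Robo2 are separated by 845744 bases, and in the papilla-like cells Robo1 stayed between 503 and 601 CPM while Robo2 was at 736 CPM at E15.5 against 236 and 134 CPM at P1.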

How the data were processed

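Per the labels and file headers, the authors made the deposited count matrices with Cell Ranger 7.0.1 (mm10), giving raw UMI counts per gene and barcode for 4 libraries. Barcodes with at least 1000 UMIs were kept, and those shared by the P1 libraries were dropped from the mandibular one. No doublets were removed in the reported setting. Counts were normalized, and 2000 variable genes, 40 principal components, 15 neighbours and Leiden clustering at resolution 1.0 (scanpy 1.11.5, leidenalg 0.10.2) were used within each library, leaving out the 68 members, the other guidance genes and mitochondrial and ribosomal genes. A cluster was named from listed markers when its mean marker position was at least 0.4, with 3 markers in 10% of its cells at a position of 0.3 or more. The position also had to be ahead by 0.1. This margin was waived for a lineage with 3 or more markers among the leading genes of the cluster and none of another lineage there. Classes within a lineage were named from leading markers or from a position ahead by 0.1. The mineralising name was given where the odontoblast and osteoblast lists both scored high. These limits were set after the clusters were seen. By its leading genes, an E15.5 maxillary cluster of 34 cells was named as leukocytes at 0.465, behind the suprabasal epithelium markers at 0.599. Clusters without a name held 503, 276, 359 and 455 cells.

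UMIs were summed per class and divided by the class total. Levels have exact Poisson intervals, log2 ratios exact binomial ones, shares Clopper-Pearson ones. A class at 0 was set to 3 counts, which makes the ratio a bound. The rule for members of a class used log2 of CPM + 1 against the median of the other classes, with up to 5 members per class and stage. Members apart in both jaws were named, at most 30 per comparison. For thinned shares each cell was drawn down to 2000 UMIs and shallower cells were left out. The ratio was run on simulated data for ameloblast-like over dental epithelium-like cells in the P1 maxillary library. Both classes were drawn as Poisson counts from the dental epithelium-like profile, with 200 genes at 20 CPM or more changed 4-fold. Over 11059 genes, 100% of the 200 were recovered and 0.0553% of the others were called. This checks the calculation under counting error only. It gives no error rate for real classes, or for genes near 5 CPM or 2-fold. The members and lists were chosen with earlier results of these data known. Alternatives were another depth, doublet, naming, scaling, filter and fold choice.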

Additional observations from a re-analysis of the deposited data

Results flagged for a closer look

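Epha6, an Eph receptor of low level, pointed opposite ways in the epithelium over mesenchyme comparison at E15.5, with a log2 ratio of -2.07 for the maxillary library against 2.04 for the mandibular one. This difference was not tested, and the mandibular epithelium was 1 mixed cluster of 141 cells.

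Sema3e, the ligand of Plxnd1, had a P1 over E15.5 log2 ratio in epithelium of 1.64 in the maxillary and -1.13 in the mandibular libraries. The difference was not tested, and the E15.5 mandibular epithelium was the mixed cluster of 141 cells.

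Ephb1 had a maxillary over mandibular log2 ratio in epithelium of -1.23 at E15.5 and 1.31 at P1, a difference that was not tested. The E15.5 mandibular side was the mixed cluster of 141 cells, and the P1 maxillary epithelium held 498 nasal or olfactory cells, a class not found in the mandibular. Within P1 dental epithelium-like cells Ephb1 was not higher in the maxillary library.

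Sema6d, a membrane semaphorin, had a P1 over E15.5 log2 ratio in the maxillary libraries of -1.91 in dental epithelium-like cells and 1.38 in papilla-like cells. The difference was not tested, and at Leiden resolution 2.0 the papilla-like ratio was -0.38, so that the directions were no longer opposite.

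Cells of clusters that received no name also held these transcripts. The summed level of the 68 genes in them was 3710, 608, 5870 and 5450 CPM in the order E15.5 maxillary, E15.5 mandibular, P1 maxillary and P1 mandibular, against 132, 39.4, 136 and 250 CPM in erythroid-like cells. The 6690 barcodes dropped from the P1 mandibular library as shared gave 4960 CPM, with a median of 2964 UMIs per barcode.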

How the results depend on the processing

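Each comparison has 1 library per group, so leaving out a library leaves no comparison. No group has a second library, and no paired analysis across jaws or stages and no test was made. Alternative values that could not differ from the reported one were not counted here. Of 207 alternative values for 18 counts of members past 2-fold, 169 were within 1.5 times the reported count. Of 2275 alternative values for 273 named log2 ratios, 2257 kept their direction and 2113 stayed past 2-fold. These ratios had been chosen for passing 2-fold in the reported setting. Most alternatives used the same cells or a part of them, so much of this agreement was set by the choice. Without the shared barcodes only 51 of 89 stayed past 2-fold, with dental classes only 76 of 92 and with each cell named on its own 183 of 223. The ranking of classes without neurons, the comparison restricted to shared barcodes and the alternatives for the comparisons of dental classes were chosen after seeing the data. Dental classes alone could not be compared in the E15.5 mandibular library, nor ameloblast-like cells and mineralising clusters in the P1 maxillary library without the shared barcodes. The cause of each difference below was not tested, except that a stricter filter tests fewer genes and a lower fold counts more.

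Counts of members apart, reported first, moved as follows. With a mean of at least 20 CPM, epithelium against mesenchyme went from 27 to 13 (E15.5 maxillary), 29 to 14 (E15.5 mandibular) and 26 to 16 (P1 mandibular), P1 against E15.5 maxillary epithelium from 20 to 13, the jaws from 7 to 4 (E15.5 mesenchyme), 13 to 7 (E15.5 epithelium) and 3 to 1 (P1 epithelium), ameloblast-like cells from 26 to 10 and 31 to 18, mineralising clusters from 29 to 14 and 32 to 21, and papilla-like cells from 23 to 14. With a 1.5-fold limit, P1 against E15.5 gave 31 (maxillary epithelium), 25 and 26 (maxillary and mandibular mesenchyme) and 27 (dental epithelium, reported 16), and the jaws 18 and 13 (mesenchyme) and 21 and 12 (epithelium) at E15.5 and P1. Without a filter the jaws gave 13 and 8 in mesenchyme and 6 in P1 epithelium, and P1 against E15.5 gave 23 in maxillary mesenchyme and 25 in dental epithelium.

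Without the shared barcodes, P1 against E15.5 gave 13 in maxillary epithelium and 3 in mesenchyme, and the P1 jaws 20 in mesenchyme (reported 4) and 17 in epithelium (reported 3), or 1 in epithelium with shared barcodes only. With each cell weighing the same, maxillary mesenchyme between stages gave 8 and the P1 jaws 7 in mesenchyme and 5 in epithelium. Thinned to 2000 UMIs these were 8 for maxillary mesenchyme and 9 for the P1 epithelium of the jaws. With dental classes only, maxillary mesenchyme between stages gave 24. With each cell named on its own, E15.5 mandibular epithelium against mesenchyme gave 18, and the E15.5 jaws in epithelium 8.

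The log2 ratios that changed sign were these. With dental classes only, Sema3c was at 0.92, Sema5b at 0.31 and Sema6d at 0.38 for E15.5 maxillary epithelium over mesenchyme. Without the shared barcodes, Sema3d was at -1.21 for P1 maxillary epithelium over mesenchyme, Ntn4 and Sema5a at -0.71 for P1 over E15.5 in maxillary epithelium, and Epha3 at 0.32 and Unc5b at -0.15 in maxillary mesenchyme. Epha5 between jaws in epithelium was at -0.49 with each cell named on its own (E15.5) and -0.12 with shared barcodes only (P1). With each cell named on its own, Plxnd1 was at 0.59 and Sema6d at 0.16 in maxillary ameloblast-like cells, and Plxna4 between stages at -0.22 in dental epithelium-like and -0.42 in papilla-like cells. With the shared barcodes kept in both libraries, Sema3a was at 0.29 in mandibular ameloblast-like cells. At Leiden resolution 2.0, papilla-like cells between stages had Plxna2 at -0.56, Plxna4 at -0.23 and Sema6d at -0.38. Thinning moved the share of cells with a UMI to 64.4% and 67.4% (ameloblast-like) and 13.2% and 7.66% (dental epithelium-like) for Plxna2, to 7.84%, 59.0% and 59.1% (papilla-like) for Unc5c, and to 39.5%, 4.56% and 3.99% (papilla-like) for Epha3.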
